A study of Mus musculus with 12 samples.

Results

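CC chemokines are small secreted proteins that draw leukocytes along a concentration gradient. Their mRNA was followed here in alveolar macrophages, the phagocytes that live in the airspaces of the lung. The 10 genes described are Ccl2, Ccl3, Ccl4, Ccl5, Ccl6, Ccl7, Ccl9, Ccl17, Ccl22 and Ccl24. They were taken by gene symbol from the 55291 rows of the deposited expression table, and all 10 were found. They were taken as a list of names, without a threshold on any value, and the list was drawn up with earlier results of these data known.

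All mice were female, of the strain C57BL6/NJ, and 8 to 11 weeks old. In 1 group, 6 mice breathed 0.8 ppm ozone for 4 h per day over 4 days in a row, and in the other, 6 mice breathed filtered air. Lungs were taken 3 days after the last exposure under urethane anaesthesia from both groups alike, so there was no sample from the days of exposure itself. Alveolar macrophages were isolated by flow sorting, in 2 flow-sort batches that each held 3 mice of each group, and each library came from 1 mouse. The values are a bulk average over the sorted cells of a mouse. Fewer cells of a type and less RNA per cell cannot be told apart in them.

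The CC family is named for a pair of adjacent cysteines near the start of the protein, and its members act through G protein-coupled receptors named Ccr. Ccl2 and Ccl7 act on Ccr2 and bring monocytes out of blood and marrow. Ccl3, Ccl4 and Ccl5 draw T cells, natural killer cells and monocytes, and Ccl3 and Ccl5 act on Ccr1. Ccl6 and Ccl9, which are found in rodents and also act on Ccr1, are known as chemokines that macrophages make without stimulation. Ccl17 and Ccl22 act on Ccr4 of T cells, and Ccl24 acts on Ccr3 of eosinophils. In the lung, alveolar macrophages are a known source of several of them after an irritant or microbe has been inhaled.

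The deposited values are on a log2 scale after a variance-stabilizing transformation. Each gene is centred on the mean of the filtered-air mice, so 0 is that mean and no value tells how abundant a gene was. A difference on this scale is smaller than the log2 change in reads for a gene with few reads. Levels are therefore compared between mice within a gene and not between genes. All 14 listed alveolar macrophage genes had reads in all 12 mice. In the limma test described below, 1 of these 14 was called higher after ozone and 1 lower, where 2.41% of all genes tested were called higher and 1.84% lower. Markers of other cells were present as well: all 15 monocyte and interstitial macrophage genes, 11 dendritic cell, 12 T cell, 11 natural killer and innate lymphoid cell, 7 B cell, 10 epithelial and 10 endothelial and fibroblast genes also had reads in all 12 mice. Of the neutrophil list 7 of 9 genes had reads in all 12 mice, and of the eosinophil, basophil and mast cell list 3 of 10. Detection thus did not tell the labelled type from the cells whose lists were found in full. Without abundance the purity of the sort was not tested. RNA integrity numbers lay between 8.9 and 9.7, and relative depth, read from the size of 1 read in the values, lay between 0.871 and 1.22. The total depth of a library is not given in the sources used here.

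None of the 10 ligands passed the test for a difference between ozone and filtered air. With limma and Benjamini-Hochberg adjustment over all 19633 genes tested, 0 of 10 had an adjusted p under 0.05, and the same test called 4.25% of all genes. Before adjustment, 2 of 10 had a p under 0.05, namely Ccl3 and Ccl4, where 16.7% of all genes tested did. That count was 0 with quantile scaling, where 2114 genes had such a p, and 3 with array weights, where 3541 did. In the fit above 3283 genes had such a p. When single mice were dropped, the ligand count was 0 for filtered-air mice 1 and 6 and for ozone mice 1, 2 and 3. For each other mouse it lay between 1 and 3. No ligand separated the groups, since 0 of 10 had ozone and filtered-air values without overlap, against 3.53% of all genes tested. The mean after ozone was higher for 6 ligands and lower for 4, and the median difference of the 10 was 0.043, beside -0.0033 over all genes tested. Since both batches contained 3 ozone and 3 filtered-air mice, the exposure difference was also compared between batches. That interaction was called for 0 of 10 ligands and for 0% of all genes (limma, Benjamini-Hochberg). At an unadjusted p under 0.05 it was seen for 0 of 10 ligands and for 2.6% of all genes.

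**Figure D1:**
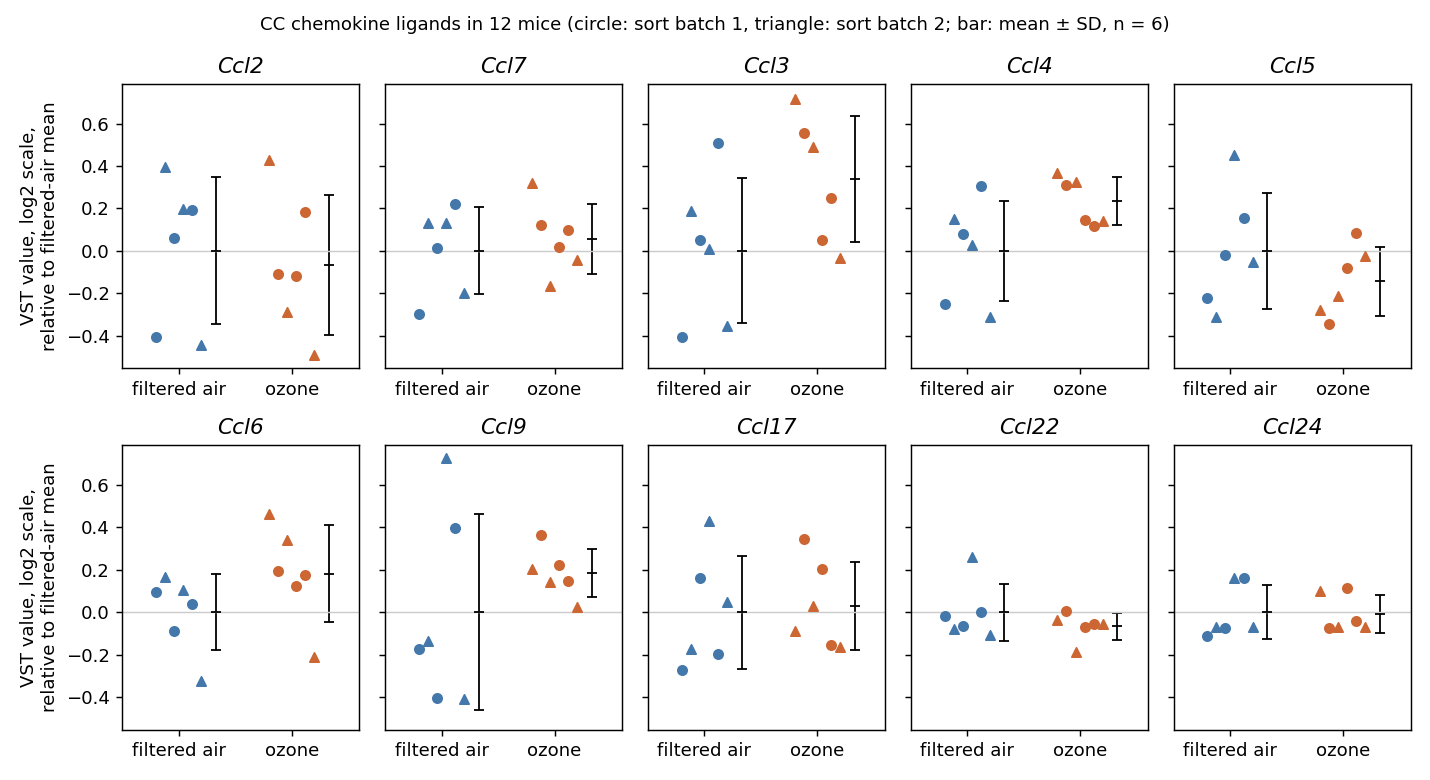
Expression of the 10 CC ligands in each mouse, on the log2 scale relative to the filtered-air mean. Each point is 1 mouse, filtered air and ozone are set side by side for each gene, circles are flow-sort batch 1 and triangles batch 2, and bars give the mean ± SD (n = 6); the ranges of the groups overlap for all 10 genes.

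Ccl3 and Ccl4, the macrophage inflammatory proteins 1 alpha and 1 beta, are early products of stimulated macrophages. Both had higher means after ozone, and neither passed the test. They lie next to each other on chromosome 11 of mm10 and point away from each other. Ccl3 occupies chr11:83647844-83649355 on the minus strand with 3 exons, and Ccl4 occupies chr11:83662584-83664683 on the plus strand with 3 exons, 13228 bases apart.

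Ccl4 ran from -0.31 to 0.30 with a median of 0.053 in filtered air, and from 0.12 to 0.37 with a median of 0.23 after ozone. All 6 ozone mice lay above the filtered-air median, 3 of them lay above the highest filtered-air mouse, and the lowest filtered-air values came from mice 1 and 6. The difference was 0.23 (SE 0.094, 95% interval 0.033 to 0.44), with an adjusted p of 0.210 in limma. The exact permutation test of the means, two-sided, gave p = 0.0476 without adjustment, and the smallest p that 6 against 6 mice allows is 0.00216. The difference was 0.15 within batch 1 and 0.32 within batch 2.

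Ccl3 ran from -0.40 to 0.51 with a median of 0.031 in filtered air, and from -0.034 to 0.72 with a median of 0.37 after ozone. Of the ozone mice, 5 of 6 lay above the filtered-air mean and 2 lay above the highest filtered-air mouse, so most of the ozone range fell within the filtered-air range. The difference was 0.34 (SE 0.16, 95% interval 0.00054 to 0.68), with an adjusted p of 0.298 in limma. The exact permutation test, two-sided, gave p = 0.104. Within batch 1 the difference was 0.23, and within batch 2 it was 0.44. Without filtered-air mouse 5, which held the highest filtered-air value of both genes, the difference was 0.45 for Ccl3 (adjusted p 0.106 in limma) and 0.30 for Ccl4 (adjusted p 0.0698). At the other end, it was 0.25 for Ccl3 without filtered-air mouse 1 (adjusted p 0.493) and 0.17 for Ccl4 without filtered-air mouse 6 (adjusted p 0.370).

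Ccl3 and Ccl4 varied together across mice. In filtered air, mice 1 and 6 were lowest and mouse 5 was highest in both genes, and after ozone mouse 1 was highest in both while the lowest was mouse 6 in Ccl3 and mouse 5 in Ccl4. Pearson's r between the genes was 0.982 over the 6 filtered-air mice (exact permutation over pairings, two-sided, p = 0.00417, adjusted p = 0.0333 over the 8 relations computed). Spearman's rho there was 0.943 (exact p = 0.0167, adjusted p = 0.133). Without the 2 mice farthest from the median, mice 1 and 5, r was 0.995. Over the 6 ozone mice r was 0.914 (exact p = 0.0417, adjusted p = 0.0833) and rho was 0.771 (exact p = 0.103, adjusted p = 0.206), and r without ozone mice 1 and 6 was 0.879. The smallest p that pairings of 6 mice allow is 0.00139, and with 3 mice of a group in a batch no r was computed within batches. The transcripts of the genes share no read-length sequence: 0 windows of 50 bases, the length of a read, in the transcripts of Ccl3 or Ccl4 occur in another gene.

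**Figure D2:**
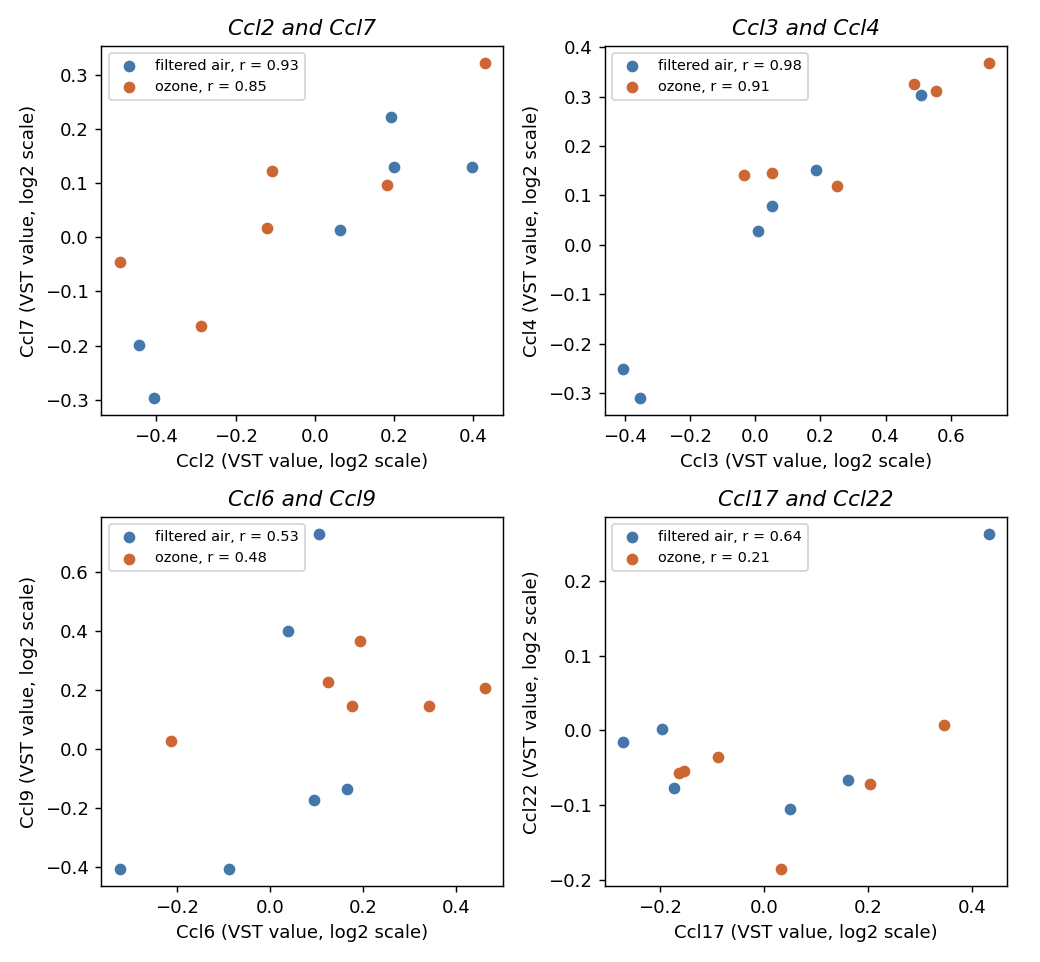
Values of 4 pairs of neighbouring CC ligands plotted against each other, both axes on the log2 scale relative to the filtered-air mean. Each point is 1 mouse, with filtered air and ozone marked by colour; Ccl3 with Ccl4 lies close to 1 line in both groups, with r of 0.982 and 0.914, and Ccl17 with Ccl22 does not.

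Ccl4 had the smallest p of the 10 ligands, and the genes whose values followed it most closely were sought over all genes tested. The measure was Pearson's r over the 12 mice after the means of group and batch had been removed, outside the 10 ligands. The highest was Rasgef1b, a guanine nucleotide exchange factor of the Ras family, at 0.955, followed by AI661453 at 0.867 and Gm40932 at 0.863. These r values were picked as the highest over all genes tested outside the ligands, and no test of them was made. They describe mice that share batches and depth. Rasgef1b itself differed between the groups by -0.10 (SE 0.081, adjusted p 0.612 in limma), the opposite sign to Ccl4.

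Ccl2 and Ccl7, the monocyte chemoattractant proteins 1 and 3, showed no difference beyond the spread of the mice. Ccl2 lies at chr11:82035571-82037453 and Ccl7 at chr11:82045712-82047525, both on the plus strand with 3 exons and 8258 bases apart. The Ccl2 interval overlaps the annotated gene Gm17268. Ccl2 ran from -0.44 to 0.40 with a median of 0.13 in filtered air, and from -0.49 to 0.43 with a median of -0.11 after ozone. The ranges lay almost on top of each other, with ozone mouse 1 above and ozone mouse 6 below every filtered-air mouse. The difference was -0.065 (SE 0.17, 95% interval -0.42 to 0.29, adjusted p 0.900 in limma). It was 0.036 within batch 1 and -0.17 within batch 2, so the sign differed between the batches.

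Ccl7 ran from -0.30 to 0.22 with a median of 0.071 in filtered air, and from -0.16 to 0.32 with a median of 0.056 after ozone. Here too only ozone mouse 1 lay above every filtered-air mouse. The difference was 0.058 (SE 0.095, 95% interval -0.14 to 0.26, adjusted p 0.833 in limma), with 0.098 within batch 1 and 0.018 within batch 2. Filtered-air mice 1 and 6 were the lowest in both Ccl2 and Ccl7, as they were in Ccl3 and Ccl4. Over the 6 filtered-air mice r between Ccl2 and Ccl7 was 0.926 (exact permutation p = 0.0264, adjusted p = 0.0833) and rho was 0.771 (exact p = 0.103, adjusted p = 0.206). Without mice 1 and 6, the farthest from the median, r fell to 0.435 over the other 4 mice, so its size over all 6 rested on those 2. Over the 6 ozone mice r was 0.854 (exact p = 0.0361, adjusted p = 0.0833) and rho was 0.886 (exact p = 0.0333, adjusted p = 0.133), and r was 0.733 without ozone mice 1 and 6.

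Ccl6 and Ccl9 lie side by side on the minus strand of chromosome 11 and have 4 exons each. Ccl9 is at chr11:83572919-83578636, Ccl6 at chr11:83587882-83593087, and 9245 bases lie between them. Ccl6 overlaps the annotated gene E230016K23Rik. The 250 bases before the start of both genes, and of Ccl3 nearby, are shown because these Ccr1 ligands share a stretch of chromosome. They are RefSeq sequence of GRCm38.p6, the build to which mm10 belongs, and entries were matched for 5 of the 10 ligands. Capitals mark matches on either strand to an NF-kB consensus, to the AP-1 motif TGANTCA, to the STAT6 motif, which is TTC, any 4 bases and GAA, or to the TATA-like motif TATAAN, and neighbouring matches can overlap. Each runs 5′ to 3′ on the minus strand and ends at the base before the start of the gene in RefSeq. For Ccl6 and Ccl9 that is also the start of the gene interval given above, and for Ccl3 RefSeq places the start farther upstream than that interval.
Ccl9, chr11:83578637-83578886: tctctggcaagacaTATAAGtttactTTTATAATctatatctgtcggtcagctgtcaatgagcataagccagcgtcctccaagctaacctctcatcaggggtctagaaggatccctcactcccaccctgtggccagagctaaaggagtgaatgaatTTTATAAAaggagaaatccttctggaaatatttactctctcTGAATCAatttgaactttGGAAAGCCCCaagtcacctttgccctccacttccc
Ccl6, chr11:83593088-83593337: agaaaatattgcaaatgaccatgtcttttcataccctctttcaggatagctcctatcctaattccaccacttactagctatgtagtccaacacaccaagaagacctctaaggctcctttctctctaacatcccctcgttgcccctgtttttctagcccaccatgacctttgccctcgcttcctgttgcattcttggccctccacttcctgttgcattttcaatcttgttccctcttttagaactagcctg
Ccl3, chr11:83649379-83649628: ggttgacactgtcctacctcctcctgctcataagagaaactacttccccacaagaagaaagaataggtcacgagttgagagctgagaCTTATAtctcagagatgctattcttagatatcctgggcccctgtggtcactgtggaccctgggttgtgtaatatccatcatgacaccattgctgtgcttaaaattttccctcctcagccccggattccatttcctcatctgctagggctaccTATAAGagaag

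The Ccl9 window held 1 NF-kB match that began at position -35 from the start, 1 AP-1 match that began at -53, and 5 matches to TATAAN. The Ccl3 window held 2 matches to TATAAN, and the Ccl6 window held no match to these motifs. Of the matched windows not shown, that of Ccl17 held 1 STAT6 match that began at -154 and 1 match to TATAAN. That of Ccl22 held no match. Among 32851 promoters of the same length, 7.25% held the NF-kB consensus, 6.75% held TGANTCA, 5.85% held the STAT6 motif and 22.7% held TATAAN. The longest run shared by the Ccl6 and Ccl9 windows was 13 bases, GCCCTCCACTTCC, which began at position -55 of Ccl6 and -14 of Ccl9. A match describes letters in these windows and no binding was measured.

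Ccl6, also called C10, ran from -0.32 to 0.17 with a median of 0.068 in filtered air, and from -0.21 to 0.46 with a median of 0.19 after ozone. In the ozone group 4 of 6 mice lay above every filtered-air mouse, and mouse 6 was the lowest of each group. The difference was 0.18 (SE 0.10, 95% interval -0.040 to 0.40, adjusted p 0.422 in limma), with 0.15 within batch 1 and 0.21 within batch 2. It was 0.27 without ozone mouse 6 and 0.11 without filtered-air mouse 6. The exact permutation test over all 12 mice, two-sided, gave p = 0.156.

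Ccl9, also called macrophage inflammatory protein 1 gamma, had the highest ratio of filtered-air to ozone spread among the 10 ligands. Filtered-air mouse 4 was at 0.73 and mouse 5 at 0.40, and the other 4 filtered-air mice lay between -0.41 and -0.14. The 6 ozone mice lay between 0.025 and 0.37, all inside the gap that the filtered-air mice left. The SD was 0.462 in filtered air and 0.113 after ozone (n = 6 each), a ratio of 4.10. A ratio at least that high was seen in 0.438% of the genes tested. The difference of the means was 0.19 (SE 0.17, 95% interval -0.17 to 0.54, adjusted p 0.656 in limma), and the exact permutation test gave p = 0.364. It was 0.31 within batch 1 and 0.064 within batch 2. Without filtered-air mouse 4 the difference was 0.35 (adjusted p 0.122), and without filtered-air mouse 6 it was 0.094. The mean of the monocyte and interstitial macrophage markers, among other lists, was also highest in filtered-air mice 4 and 5, at 0.28 and 0.18. After ozone Ccl9 was highest in mouse 2, where that mean was lowest, at -0.12. The part of such cells in the Ccl9 values was not tested. The mRNA of Ccl9 shares some sequence with other genes: 59 of its 2957 windows of 50 bases, or 2.00%, occur in transcripts of 463 other genes, none of them among the 10 ligands. The other 9 ligands had 0 such windows.

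Values of Ccl6 and Ccl9 were related weakly across mice. In filtered air r was 0.531 (exact permutation p = 0.281, adjusted p = 0.370) and rho was 0.714 (exact p = 0.136, adjusted p = 0.218). After ozone r was 0.483 (exact p = 0.324, adjusted p = 0.370) and rho was 0.257 (exact p = 0.658, adjusted p = 0.878). Without the 2 mice farthest from the median of Ccl6, r turned negative in both groups, at -0.438 in filtered air and -0.347 after ozone, over 4 mice each and with no test.

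**Figure D3:**
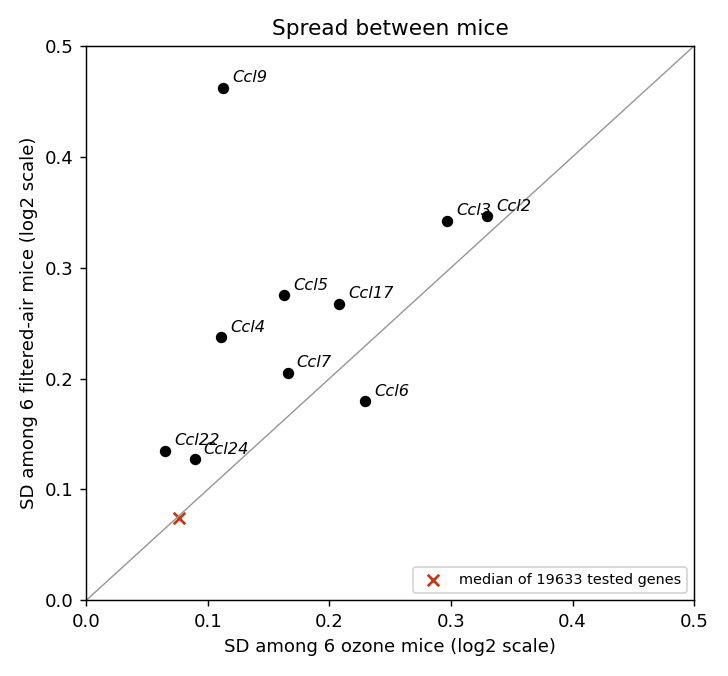
Standard deviation of each CC ligand over the 6 filtered-air mice against that over the 6 ozone mice, on the log2 scale. Each labelled point is 1 ligand, the cross is the median of all genes tested, and the line marks equal spread; 9 of 10 ligands lie on the filtered-air side, and Ccl9, with 0.462 against 0.113, lies farthest from the line.

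The spread between mice was wider in filtered air for 9 of the 10 ligands, the exception being Ccl6 with a ratio of 0.784. Over all genes tested, 48.6% had the wider spread in filtered air, and the median ratio was 0.985. After Ccl9 the highest ratios belonged to Ccl4 at 2.13 and Ccl22 at 2.08, and 5.56% and 6.02% of all genes tested reached these values. For Ccl22, filtered-air mouse 4 lay at 0.26 and the next highest filtered-air mouse at 0.0014. No ratio was computed without mouse 4, so whether 9 of the 10 ligands stay wider in filtered air without it was not tested. Ccl5 had a ratio of 1.69, and the remaining 5 lay between 1.05 for Ccl2 and 1.43 for Ccl24. The 10 ligands were measured in the same mice, so these ratios are not independent of each other, and no test of them was made. The extremes fell on a few mice: filtered-air mouse 4 was the highest of its group in 5 ligands and mouse 5 in 3, and mouse 6 was the lowest in 5 and mouse 1 in 4. Filtered-air mouse 4 also had the lowest RNA integrity number of the 12 mice, 8.9, and the other 11 had 9.2 to 9.7. With RNA integrity as a covariate the difference was 0.23 for Ccl9, -0.049 for Ccl22 and -0.12 for Ccl5, and the part of RNA integrity in the spread was not tested. Among ozone mice, mouse 1 was highest in 5 ligands and mouse 6 lowest in 5.

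Ccl5, known as RANTES, is made in quantity by T cells and natural killer cells as well as by stimulated macrophages. It lies at chr11:83525778-83530518 on the minus strand with 3 exons. Ccl5 ran from -0.31 to 0.45 with a median of -0.035 in filtered air, and from -0.35 to 0.083 with a median of -0.15 after ozone. All ozone mice lay below the 2 highest filtered-air mice, mice 4 and 5, and 1 ozone mouse lay below every filtered-air mouse. The difference was -0.14 (SE 0.11, 95% interval -0.39 to 0.099, adjusted p 0.602 in limma), with -0.085 within batch 1 and -0.20 within batch 2. Without filtered-air mouse 4 it was -0.043.

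Markers of natural killer and innate lymphoid cells and of B cells were ordered in the filtered-air mice as Ccl5 was. The mean of the 11 listed marker genes ran from -0.16 in mouse 2 to 0.29 in mouse 4 in filtered air, and from -0.15 to 0.012 after ozone. After ozone the same 3 mice, 4, 5 and 6, were above the other 3 in Ccl5 and in this mean. Of these 11 genes 0 were called (limma), 0 had an unadjusted p under 0.05, and 10 had a lower mean after ozone. Among 12 T cell markers 0 were called and 0 had an unadjusted p under 0.05, with a mean from -0.25 to 0.28 in filtered air and from -0.24 to 0.23 after ozone. The T cell mean ordered the 6 ozone mice exactly as Ccl5 did, and in filtered air its order was another. Among 7 B cell markers 0 were called (limma), 7 had a lower mean after ozone and 4 had an unadjusted p under 0.05, where 10210 of the 19633 genes tested had a lower mean and 16.7% had such a p. Their mean ran from -0.24 in mouse 2 to 0.37 in mouse 4 in filtered air, and from -0.40 in mouse 5 to -0.076 in mouse 4 after ozone, where the order was another than that of Ccl5, which was highest in mouse 5. The part of these cells in the Ccl5 values was not tested.

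Ccl17 and Ccl22 lie on chromosome 8, Ccl22 at chr8:94745590-94751699 and Ccl17 at chr8:94810453-94812036, both on the plus strand with 3 exons and 58753 bases apart. Both are known products of dendritic cells and of macrophages exposed to interleukin 4. Ccl17 ran from -0.27 to 0.43 with a median of -0.062 in filtered air, and from -0.16 to 0.35 with a median of -0.029 after ozone. The ozone range lay within the filtered-air range. The difference was 0.028 (SE 0.12, 95% interval -0.23 to 0.28, adjusted p 0.946 in limma). Its sign differed between the batches, with 0.23 within batch 1 and -0.18 within batch 2, and the interaction had an unadjusted p of 0.0858 and an adjusted p of 1.00 (limma).

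Ccl22 ran from -0.11 to 0.26 with a median of -0.041 in filtered air, and from -0.19 to 0.0071 with a median of -0.056 after ozone. Filtered-air mouse 4 at 0.26 stood apart, and the other 5 filtered-air mice lay within the range of the ozone mice. The difference was -0.066 (SE 0.058, 95% interval -0.19 to 0.059, adjusted p 0.653 in limma), with -0.013 within batch 1 and -0.12 within batch 2. Without filtered-air mouse 4 it was -0.0079. That mouse was also the highest filtered-air mouse in Ccl5, Ccl9, Ccl17 and Ccl24, and in 6 lists of markers of other cells. For the 11 dendritic cell markers, which had 0 calls in limma and 2 with p under 0.05 before adjustment, the mean reached 0.15 in that mouse and ran down to -0.16 in filtered air. Filtered-air mouse 5 had nearly the same dendritic mean, 0.14, with Ccl22 at 0.0014 and Ccl17 at -0.20. After ozone the dendritic mean ran from -0.18 to 0.063, and mouse 6, where it was highest, had the lowest Ccl17, -0.16. The part of such cells in the Ccl22 and Ccl17 values was not tested.

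Mice with high Ccl17 were not regularly those with high Ccl22. In filtered air r was 0.639 (exact permutation p = 0.164, adjusted p = 0.262), but rho was 0.0857 (exact p = 0.919, adjusted p = 0.919), and r was -0.812 without mice 3 and 4. After ozone r was 0.215 (exact p = 0.719, adjusted p = 0.719) and rho was 0.143 (exact p = 0.803, adjusted p = 0.918), and r was -0.871 without the 2 mice farthest from the median.

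Ccl24, or eotaxin 2, lies at chr5:135569937-135573049 on the minus strand with 4 exons. Reads were found in 8 of 12 mice. In batch 2, where single reads could be told apart, filtered-air mouse 4 held the equivalent of 4.45 reads, ozone mouse 1 held 2.17, and the other 4 mice held 0. Values ran from -0.11 to 0.16 in filtered air and from -0.074 to 0.11 after ozone. The difference was -0.0075 (SE 0.060, 95% interval -0.14 to 0.12, adjusted p 0.973 in limma). No difference was detected, and its sign changed with the scaling, as given in the closing section. How many reads the 6 mice of batch 1 held was not determined.

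**Figure D4:**
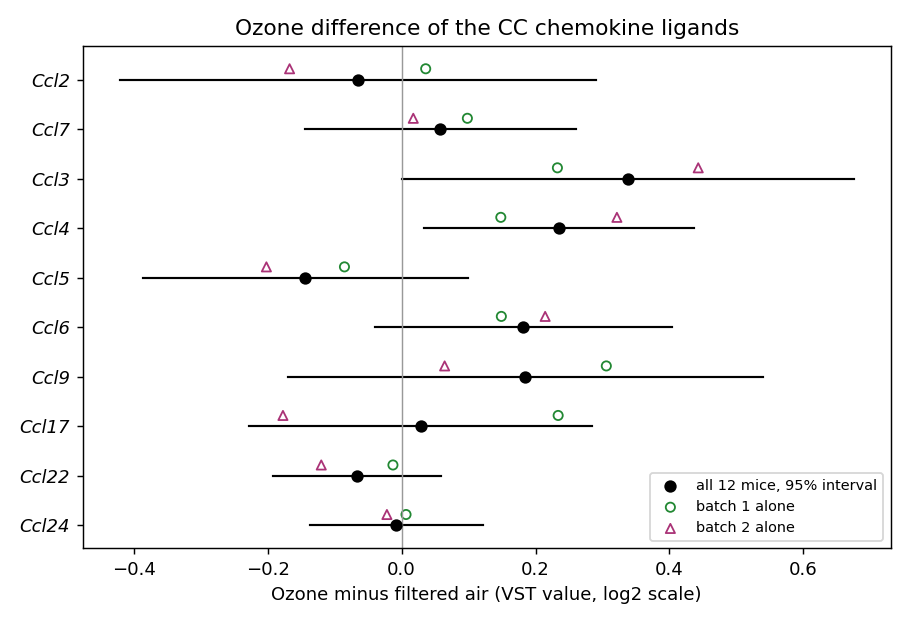
Difference between ozone and filtered air for each CC ligand on the log2 scale, from the limma fit with flow-sort batch as a covariate. Filled points are the differences over all 12 mice, bars their 95% intervals, and open circles and triangles the differences within batch 1 and batch 2; the intervals of Ccl3, from 0.00054, and Ccl4, from 0.033, lie above 0, and the intervals of the other 8 include 0.

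Of the 11 other CC ligand genes listed, 3 had no read in any mouse, namely Ccl19, Ccl20 and Ccl26. Another 3 had reads in fewer than 6 mice and were not tested: Ccl1 in 5 mice, Ccl11 in 4 and Ccl28 in 4. The remaining 5 were tested and 0 were called (limma), with 1 at an unadjusted p under 0.05. That 1 was Ccl21a, a lymph node homing chemokine, with a difference of 0.11 (SE 0.052, adjusted p 0.294). It had reads in 6 mice, with the equivalent of 2.99 to 6.02 reads in 4 ozone mice, 1 read in each of 2 filtered-air mice and 0 in the other 6. Its difference was 0.23 within batch 1 and -0.0054 within batch 2. Ccl8 (0.051, adjusted p 0.739), Ccl12 (0.016, adjusted p 0.920), Ccl25 (0.056, adjusted p 0.689) and Ccl27a (-0.041, adjusted p 0.646) completed the 5.

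Receptors of these ligands were described from a list of 15 genes, of which 12 were tested. None was called (0 of 12, limma), 2 had an unadjusted p under 0.05, near the 16.7% of all genes tested, and the median difference was -0.046, beside -0.0033 over all genes tested. Ccr1, the receptor of Ccl3, Ccl5, Ccl6 and Ccl9, had the smallest p, with a difference of -0.24 (SE 0.064, adjusted p 0.0507). In 5 of 6 ozone mice it was lower than in every filtered-air mouse. The call depended on the setting: with arrays weighted by quality, for example, the adjusted p was 0.0424. The other of the 2 was Ccrl2, an atypical receptor, named here after its values were seen. It had a higher mean after ozone, with a difference of 0.39 (SE 0.11, adjusted p 0.0609 in limma). Among 19 genes of receptor signalling 0 were called and 3 had an unadjusted p under 0.05. The smallest p there belonged to Plcb2, a phospholipase C, with a difference of 0.31 (SE 0.093, adjusted p 0.0777 in limma), and without filtered-air mouse 5 it was 0.37 (adjusted p 0.0315). Leaving out any other mouse left the adjusted p of Plcb2 above 0.05, with 0.24 (adjusted p 0.120) without ozone mouse 6.

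Genes that act on CC ligand transcription and mRNA stability were described in the same way. Of 19 NF-kB pathway genes 1 was called, and 6 had an unadjusted p under 0.05, where the shares over all genes tested were 4.25% and 16.7%. A single call among 19 is near the overall share. The call was Myd88, the adaptor of Toll-like and interleukin 1 receptors, which fell by 0.15 (SE 0.039, adjusted p 0.0460 in limma), with 5 of 6 ozone mice below every filtered-air mouse. Dropping single mice ended that call for 10 of the 12 mice. Of 9 factors that act on the stability of such mRNAs 1 was called, beside 4.25% of all genes tested, and 2 had an unadjusted p under 0.05. The call was Zfp36, which binds AU-rich elements and speeds mRNA decay. Zfp36 rose by 0.33 (SE 0.081, adjusted p 0.0354 in limma), and all 6 ozone mice lay above all 6 filtered-air mice. The rise was 0.11 within batch 1 and 0.54 within batch 2, and dropping single mice ended the call for 7 of the 12.

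Cytokines known to induce CC ligands gave 0 calls among the 9 tested of 12 listed (limma), with 2 at an unadjusted p under 0.05, and Il4 and Il13 had no read in any mouse. Tnf had the smallest p, with a difference of -0.60 (SE 0.18, adjusted p 0.0813), and without ozone mouse 5 it was -0.77 (adjusted p 0.00611). Leaving out any other mouse left the adjusted p of Tnf above 0.05, with -0.51 (adjusted p 0.180) without ozone mouse 3. In the pathway from interleukin 4 and interleukin 13 to STAT6, which induces Ccl17, Ccl22 and Ccl24 in macrophages, 0 of 14 genes were called and 2 had an unadjusted p under 0.05. Klf4, a transcription factor of that pathway, had the smallest p there, with a difference of 0.18 (SE 0.061, adjusted p 0.115), and without ozone mouse 2 it was 0.24 (adjusted p 0.0237). Leaving out any other mouse left the adjusted p of Klf4 above 0.05, with 0.15 (adjusted p 0.215) without filtered-air mouse 4. The NF-kB, mRNA stability, cytokine and STAT6 lists were drawn up without any CC ligand or CC receptor.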

How the data were processed

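Polyadenylated RNA of flow-sorted alveolar macrophages from 12 mice was sequenced as paired-end reads of 50 bases after a stranded kit, per the labels' protocols. The submitters' processing notes name cutadapt, STAR 2.7.7a, Salmon 1.5.2, DESeq2 1.26.0, R 3.6.0, limma 3.42.2 and mm10, without saying what each was used for. The deposited values are log2-scale variance-stabilized expression that the authors had corrected for batch, per the name of the deposited table, and in the values each gene has a filtered-air mean of 0. How reads shared between genes were assigned is not given in the sources used here.

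Genes with at least 6 of 12 mice above the shared minimum of their batch (equal within 1e-08, taken as no read) were tested, 19633 of the 25444 that varied. The fit used limma 3.58.1 in R 4.3.3 with group and flow-sort batch, without a variance trend, and Benjamini-Hochberg adjustment over all genes with a threshold of 0.05. It was tested on simulated data. Intervals are 95%. Pairs of neighbouring ligands were compared with exact permutations. Groups and batches come from the sample labels, and 0 value columns were unmatched. Reads were read from the steps in low values; 79.0% to 84.4% of values below 5.5 reads lay within 0.1 of a whole number. Gene positions are from GENCODE M21 on GRCm38.

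The members and lists were chosen with earlier results of these data known. The text names all members and all other CC ligands listed, up to 4 called genes of each other list by smallest p or else the 1 of smallest p, and the 3 genes most alike to the member of smallest p. From the marker lists, mean levels are given in place of single genes. Alternatives were no filter, reads in all 12 mice, a variance trend, robust estimation, no batch term, RNA integrity as a covariate, array weights, quantile scaling, each batch alone, a replicate block, and leaving out each mouse. Mice with the same replicate number are different animals and nothing in the labels pairs them, so the numbers were not taken as pairs. Their deviations nonetheless correlated above 0.1 in 4 of 6 numbers, and the replicate block was run as an alternative. Nothing in the labels says which mice shared a cage or day of exposure.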

Additional observations from a re-analysis of the deposited data

Results flagged for a closer look

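Dixon's ratio, the gap from the highest or lowest mouse to its nearest neighbour divided by the range of the group, was computed in both groups for the ligands and the other genes named, 42 groups in all, and 2 exceeded the 95% critical value for 6 mice. Chance alone exceeds it in about 1 of 20 groups. Filtered-air mouse 4 was far above the other filtered-air mice in Ccl22, at 0.26 on the log2 scale with a ratio of 0.711. Filtered-air mouse 1 was far below the others in Ccl12, a monocyte chemoattractant outside the 10 ligands, at -0.17 with a ratio of 0.636.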

How the results depend on the processing

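For the 10 ligands, 208 values under the alternatives kept their direction and their side of the threshold, 20 changed sign and 1 passed the threshold. The count of ligands called stayed at 0 in all 12 fits that left out 1 mouse and in all other settings except the replicate block. With replicate number as a block, 1 ligand was called, Ccl6 (0.18, adjusted p 0.0240 in limma), among 853 genes of which 686 were shared with the 834 called without it; 6 of 12 mice correlated best with their own number, and the numbers join different animals. In batch 1 alone, 1 ligand of 10, Ccl6, had groups without overlap, beside 16.2% of all genes tested with 3 mice a group. Genes called numbered 171 with quantile scaling (106 higher, 65 lower), 90 in batch 1 alone (71 higher, 19 lower) and 0 in batch 2 alone (limma, 0 higher, 0 lower, 1800 at an unadjusted p under 0.05), each batch with 3 mice a group. With a variance trend 221 were called lower. Leaving out 1 mouse gave 538 to 751 genes (326 to 456 higher, 212 to 312 lower), and the fewest came without filtered-air mouse 1. Ccl24 turned positive with RNA integrity as a covariate (0.00054), quantile scaling (0.0036), array weights (0.0043) and in batch 1 alone (0.0067), and it could not be tested where reads in all 12 mice were required. In single batches, Ccl2 was 0.036 in batch 1, and Ccl17 was -0.18, Ccl8 -0.011, Ccl12 -0.067 and Ccl21a -0.0054 in batch 2. Leaving out 1 mouse moved Ccl2 from -0.18 to 0.029, Ccl7 from -0.0081 to 0.11, Ccl17 from -0.042 to 0.12, Ccl24 from -0.035 to 0.029 and Ccl12 from -0.022 to 0.031. With quantile scaling, r between Ccl2 and Ccl7 in filtered air was 0.934 (exact permutation, adjusted p 0.0370) and between Ccl3 and Ccl4 after ozone 0.952 (adjusted p 0.0222). Plcb2 passed the threshold with the replicate block (adjusted p 0.0139). Ccr1 passed it in 5 of the 11 settings other than leaving out a mouse. Myd88 and Zfp36 each lost their call in 6 of those 11. The cause of these changes was not tested. Reads were found in 8 mice for Ccl24 and in 6 mice each for Ccl8 and Ccl21a, and how depth bears on their values was not tested.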
